A study of Mus musculus with 12 samples.

Results

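The response of C17.2 cells to 12 h of T3 (triiodothyronine, the active thyroid hormone) was described gene by gene from 4 of the 12 libraries of the series. These were the T3 and the untreated library of the C17.2a line and the T3 and the untreated library of the C17.2b line, and each T3 library was set against the untreated library of its own line, which gave 2 pairs. C17.2 is a mouse neural progenitor cell line. In C17.2a a tagged thyroid hormone receptor alpha was stably expressed, and in C17.2b a tagged receptor beta. All cells, untreated ones included, first spent 24 h in medium without serum, and T3 was then given at 1e-07 M or left out for 6, 12 or 24 h. Each combination of line, treatment and time had 1 library, and no label states that the libraries came from separate cultures. Line and receptor therefore cannot be told apart, and the p-values measure how far pairs from different lines differ, not the spread between replicate cultures. The comparison asks which genes respond to T3 in both lines.

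T3 enters cells and binds nuclear receptors encoded by Thra and Thrb, which sit on DNA, mostly together with a retinoid X receptor. Without hormone the receptors recruit corepressors such as Ncor1, and with hormone they exchange these for coactivators, so that many target genes are induced while others are lowered. In the brain the hormone is known for its part in the maturation of neurons, astrocytes and myelinating cells, and in other tissues for its control of lipid and carbohydrate metabolism.

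The deposited values are RPM, tag numbers scaled so that every library has the same sum. At 12 h the smallest steps between values imply 1.11e+07 to 1.41e+07 tags per library, and 3 tags are then worth 0.212 to 0.269 RPM, a floor that covers counting error only. Of the markers used to check the labelled cell type, the neural progenitor genes Vim, Sox2 and Nes were all measured, with the lowest value, 70.2 RPM, belonging to Nes. Fibroblast collagens were abundant as well: Col1a1 had 3080 and 965 RPM in the T3 libraries of C17.2a and C17.2b, against 2590 and 914 RPM in the untreated ones. A pair outside the comparison, C17.2a at 24 h, stood apart: the log2 ratios of its T3 to its untreated library had an SD of 0.95 across 8910 genes, against 0.41 and 0.45 for the C17.2a and C17.2b pairs at 12 h. The spread was therefore taken from the 8 libraries of 6 h and 12 h, and the fit to all 12 libraries is given beside it.

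After 12 h of T3, 677 of 10350 tested genes (6.54%) passed at an adjusted p under 0.05 (limma on log2(RPM + 1), Benjamini-Hochberg adjustment over all genes tested). The value tested was the mean difference of both pairs, and the lines were not tested one by one. Of these, 463 genes (4.47%) rose and 214 genes (2.07%) fell. The sign was the same in both pairs for all 677, and it was the same in both pairs for 65.4% of all tested genes. The T3 libraries of both lines lay above both untreated libraries for 432 of the 463 genes that rose, where 24.4% of all tested genes did so. They lay below both untreated libraries for 178 of the 214 genes that fell, where 13.1% of all tested genes did so. The median log2 fold change was 0.95 for genes that rose and −0.88 for genes that fell, against 0.05 for all tested genes. Changes of more than 1 on the log2 scale were found for 207 higher and 74 lower genes, and changes of more than 2 for 32 higher and 6 lower genes. The fit to all 12 libraries called 52 genes (0.483%), 38 higher and 14 lower, all of them among the 677. Without the C17.2b 12 h pair 379 genes were called, and without the C17.2a 12 h pair 563.

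**Figure D1:**
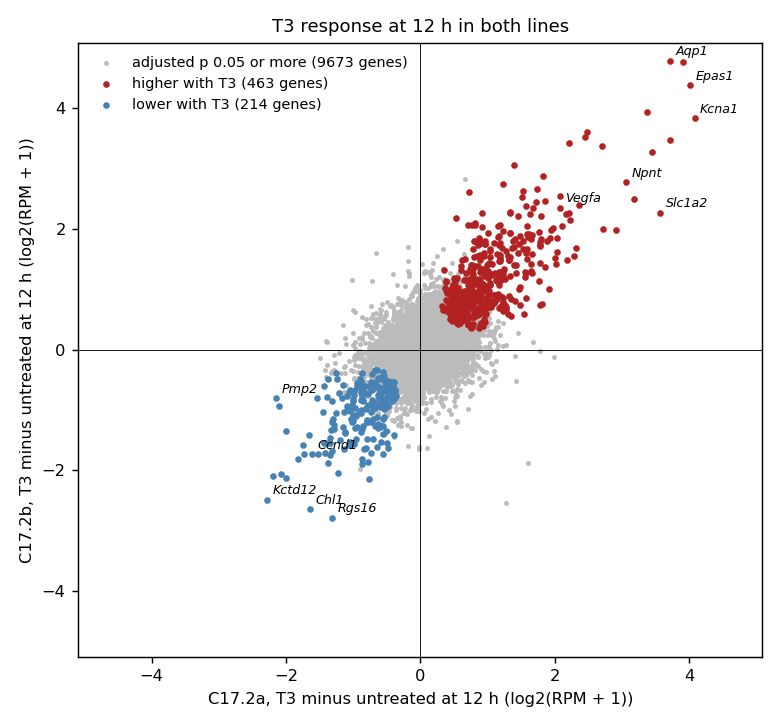
Each point is a tested gene, with the T3 minus untreated difference at 12 h in C17.2a on the x axis and in C17.2b on the y axis, both as log2(RPM + 1). The 463 genes that rose (red) lie in the upper right, the 214 that fell (blue) in the lower left, and the other tested genes (grey) around the origin.

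A simpler count that needs no test also held more higher than lower genes. It uses the same 12 h libraries and RPM values as the fit, so it is no separate check. Of 8910 genes with at least 50 implied tags in each pair, 139 (1.56%) were at least 2-fold higher in both lines and 41 (0.46%) at least 2-fold lower in both lines, after 2 tags were added to each value. Of these 180 genes (2.02%), 178 also passed the test. The imbalance depends in part on scaling. With median-ratio scaling the count was 124 higher and 52 lower, and the test called 346 higher and 231 lower genes. With the deposited scaling, only 2 genes were past 2-fold in opposite directions, and both were picked out here after their values were seen. Bag2, a co-chaperone, had 21.4 RPM in C17.2a with T3, against 8.26 RPM untreated, and 5.23 RPM in C17.2b with T3, against 35.1 RPM untreated. Tom1l2 had 24.0 RPM in C17.2a with T3, against 7.28 RPM untreated, and 14.6 RPM in C17.2b with T3, against 56.1 RPM untreated. Across the 8910 genes the log2 ratios of the lines at 12 h had a Pearson correlation of 0.64. This is a description over genes, which are not independent and share the libraries of each pair.

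Hr and Klf9, genes known to respond to T3, both rose. Hr, which encodes the corepressor hairless, had 34.3 RPM in C17.2a and 67.7 RPM in C17.2b with T3, against 1.69 and 5.20 RPM without. Its log2 fold change, the mean of 2 pairs, was 3.59 ± 0.17 (limma adjusted p = 9.93e-07). Here and below, ± gives the limma SE. That SE comes from the spread in the 8 libraries of 6 h and 12 h, moderated with the spread of other genes. Klf9, a zinc finger transcription factor induced by T3 in brain cells, had 19.7 and 29.5 RPM with T3, against 6.48 and 8.07 RPM without. Its log2 fold change was 1.61 ± 0.18 (limma adjusted p = 0.000341). For both genes the T3 libraries lay above both untreated ones. With all 12 libraries Hr kept its call and Klf9 did not (limma adjusted p = 0.00281 and 0.222), and the Klf9 difference in the C17.2a 24 h pair was −0.40.

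Of 25 tested genes on a list of T3-responsive genes, 9 rose, 1 fell and 15 did not pass, where 4.47% of all tested genes rose and 2.07% fell. Their median log2 fold change was 0.58, against 0.05 for all tested genes. Besides Hr and Klf9, the genes that rose included Me1 (malic enzyme, which makes NADPH), Srebf1 (a regulator of lipid synthesis) and Stat5a (a cytokine-activated transcription factor). Me1 had 516 and 371 RPM with T3, against 226 and 125 RPM without, and its log2 fold change was 1.38 ± 0.13. Stat5a had 2.90 and 1.73 RPM with T3, against 0.04 and 0.36 RPM, close to the floor, without. Its log2 fold change of 1.46 depends on the added pseudocount of 1 RPM. Nefm, the medium neurofilament subunit, was the member that fell. Without the C17.2b 12 h pair 6 members of this list rose, and without the C17.2a 12 h pair Stat5a had a limma adjusted p of 0.0656.

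The receptor genes themselves were low. Thra had 2.41 and 2.39 RPM in C17.2a and C17.2b with T3, against 2.04 and 2.24 RPM without, a log2 fold change of 0.12 ± 0.21 (limma adjusted p = 0.84). Thrb had 1.77 and 1.86 RPM with T3, against 0.98 and 0.72 RPM without, a log2 fold change of 0.61 ± 0.23 (limma adjusted p = 0.157). Neither line stood above the other for the receptor it was made to express. Whether the tagged receptors carry the tags that were counted is not given in the sources used here. Of 19 tested receptor cofactors 2 rose, Hr among them, and 17 did not pass, where 4.47% of all tested genes rose.

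The 15 genes with the highest log2 fold changes encoded proteins of various kinds, and they include Hr, described above, and the transcription factor Epas1, described below with the hypoxia list. Flrt1, a leucine-rich membrane protein of cell adhesion, had 20.5 and 31.4 RPM with T3, against 0.44 and 0.18 RPM without, and its log2 fold change of 4.34 ± 0.30 was the highest among the named genes. The untreated values equal only a few tags, and with a pseudocount of 5 RPM in place of 1 the difference was 2.52. Aqp1, a water channel, had 75.1 and 195 RPM with T3, against 4.80 and 6.10 RPM without (log2 fold change 4.25 ± 0.23; limma adjusted p = 2.3e-06). Kcna1, a voltage-gated potassium channel, had 255 and 601 RPM with T3, against 14.1 and 41.2 RPM without (log2 fold change 3.96 ± 0.12; limma adjusted p = 3.54e-08). In each of these 3 genes the T3 libraries lay far above the untreated ones of both lines. Kcna1 kept its call in all alternatives tried, whereas Flrt1 and Aqp1 lost theirs with all 12 libraries (limma adjusted p = 0.0577 and 0.123).

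Socs2, a suppressor of cytokine signalling that STAT5 induces, had 82.9 and 95.7 RPM with T3, against 7.11 and 5.29 RPM without (log2 fold change 3.66 ± 0.17). Cxcr7, an atypical chemokine receptor now named Ackr3, had 78.6 and 65.7 RPM with T3, against 6.31 and 5.92 RPM without (log2 fold change 3.36 ± 0.20). Both genes rose strongly in both lines and kept their calls in all alternatives. Arrdc3, an arrestin-domain adaptor of receptor trafficking, had 106 and 111 RPM with T3, against 10.8 and 18.7 RPM without (log2 fold change 2.84 ± 0.20). Mapkapk3, a kinase downstream of p38, had 16.6 and 18.2 RPM with T3, against 1.33 and 3.86 RPM without (log2 fold change 2.45 ± 0.23). Of all tested genes 4.47% rose and 2.07% fell. Of 20 tested genes of STAT5 and SOCS signalling, 4 rose and 0 fell (limma, 4 of the 20 passed in all). Stat6 and Stat5b were the others beside Socs2 and Stat5a, with log2 fold changes of 0.57 and 0.79, and both lost their calls without the C17.2a 12 h pair (limma adjusted p = 0.303 and 0.0784) and without the C17.2b 12 h pair (0.104 and 0.392).

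Slc43a2, a carrier of large neutral amino acids, had 69.3 and 76.9 RPM with T3, against 9.77 and 6.46 RPM without (log2 fold change 3.05 ± 0.19). Slc1a2, the main glutamate transporter of astrocytes, had 13.0 and 4.69 RPM with T3, against 0.18 RPM in both untreated libraries (log2 fold change 2.92 ± 0.31). The untreated Slc1a2 values lie below the 3-tag floor. Slc1a5, a carrier of glutamine, also rose (log2 fold change 1.19 ± 0.16). Thus 3 of 14 tested amino acid transporters rose, 0 fell and 11 did not pass (limma), where 4.47% of all tested genes rose. Phospho1, a phosphatase best known from bone mineralisation, had 60.9 and 128 RPM with T3, against 10.4 and 10.2 RPM without. Lpin3, an enzyme of the lipin family that dephosphorylates phosphatidic acid, had 10.1 and 15.7 RPM with T3, against 0.98 and 0.36 RPM without. Npnt, an extracellular matrix ligand of integrins, had 8.07 and 6.46 RPM with T3, against 0.09 RPM in both untreated libraries. The untreated Npnt level, like that of Slc1a2, was below the floor, and its fitted log2 fold change of 2.92 was 3.71 with a pseudocount of 0.5 RPM and 1.27 with one of 5 RPM. Tmem117, a membrane protein, had 11.9 and 24.4 RPM with T3, against 1.78 and 1.35 RPM without.

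**Figure D2:**
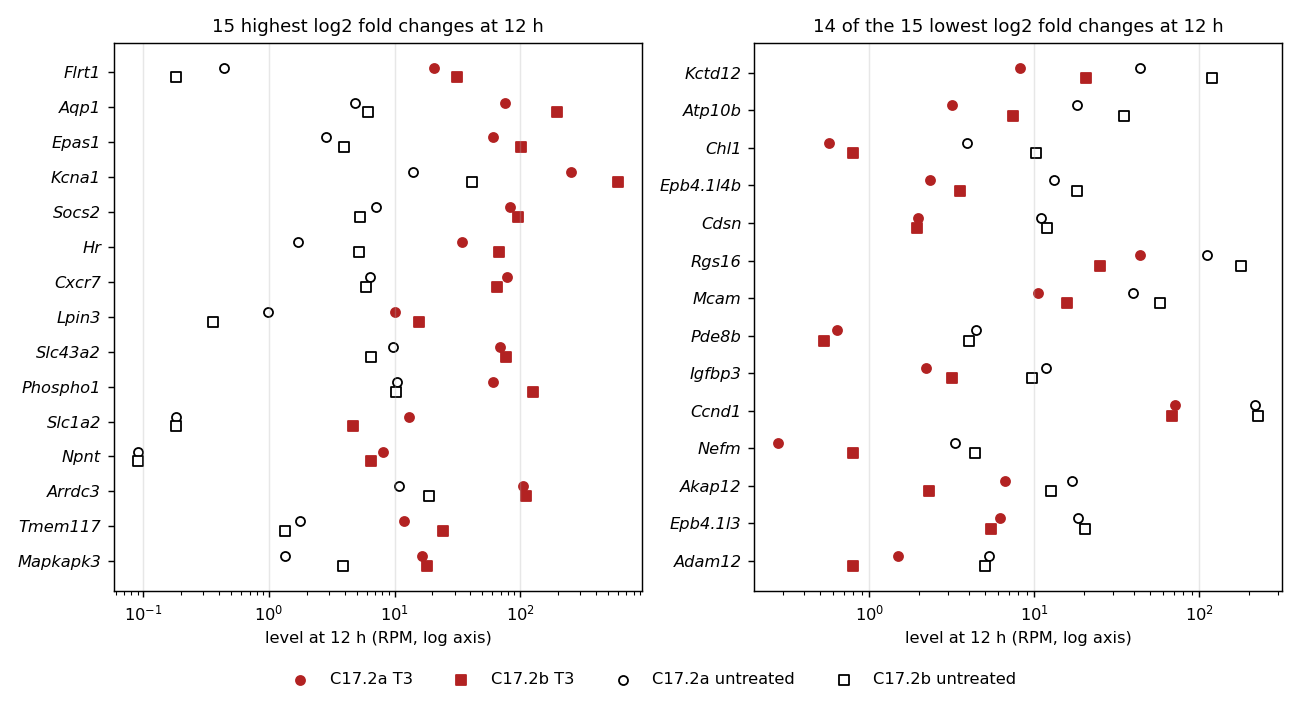
Levels at 12 h in RPM on a log axis for the 15 genes with the highest (left) and 14 of the 15 with the lowest (right) log2 fold changes, with filled red symbols for T3 and open symbols for untreated libraries, circles for C17.2a and squares for C17.2b. For Kcna1 the T3 libraries have 255 and 601 RPM and the untreated ones 14.1 and 41.2 RPM, and for Kctd12 8.21 and 20.5 RPM against 43.9 and 119 RPM.

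The 15 genes with the lowest log2 fold changes likewise encoded proteins of various kinds. Kctd12, an auxiliary subunit of GABA-B receptors, had 8.21 and 20.5 RPM with T3, against 43.9 and 119 RPM without, and its log2 fold change was −2.39 ± 0.15 (limma adjusted p = 7.56e-06). Atp10b, a phospholipid-transporting ATPase, had 3.18 and 7.44 RPM with T3, against 18.2 and 35.1 RPM without (log2 fold change −2.15 ± 0.17). Rgs16, which speeds GTP hydrolysis by G protein alpha subunits, had 43.8 and 25.2 RPM with T3, against 111 and 179 RPM without (log2 fold change −2.05 ± 0.34). The T3 libraries lay below both untreated ones for these 3 genes, and the Rgs16 difference was larger in C17.2b (−2.78) than in C17.2a (−1.32). With all 12 libraries Kctd12 and Atp10b kept their calls and Rgs16 did not (limma adjusted p = 0.377).

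Ccnd1, the D-type cyclin that drives cells through G1, had 70.7 and 67.8 RPM with T3, against 218 and 228 RPM without, and its log2 fold change was −1.67 ± 0.13 (limma adjusted p = 3.08e-05). Pde8b, a phosphodiesterase that degrades cyclic AMP, had 0.64 and 0.53 RPM with T3, against 4.44 and 4.04 RPM without. Akap12, a scaffold for protein kinase A, had 6.65 and 2.30 RPM with T3, against 16.9 and 12.6 RPM without. The T3 libraries were the lower ones in both lines for all 3. Igfbp3, a binding protein of insulin-like growth factors, had 2.19 and 3.19 RPM with T3, against 11.8 and 9.69 RPM without. Its log2 fold change was −1.68 ± 0.27, and it was the 1 member of 10 tested genes of IGF signalling that passed. Of all tested genes 2.07% fell.

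Most genes on a list of the hypoxia response rose. Hypoxia-inducible factors pair an alpha subunit, Hif1a or Epas1, with Arnt and bind the letters ACGTG near target genes, while the oxygen-sensing hydroxylases of the Egln family mark the alpha subunits for destruction. Of 30 tested members, 24 rose and 0 fell (limma; 6 did not pass), where 4.47% of all tested genes rose. The median log2 fold change was 0.90, with 0.75 in the C17.2a pair and 1.0 in the C17.2b pair, and 27 members were higher with T3 in both lines, as were 39.7% of all tested genes. Members were chosen with earlier results of these data known, and the count is a description. Only 4 members kept their call with all 12 libraries (Epas1, Ero1l, Car9 and Bnip3). Without the C17.2b 12 h pair 15 members rose, and without the C17.2a 12 h pair 21.

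The factor Epas1 changed most. It had 60.8 and 102 RPM with T3, against 2.84 and 3.95 RPM without, and its log2 fold change was 4.20 ± 0.18 (limma adjusted p = 5.72e-07). Hif1a rose much less, with a log2 fold change of 0.60 (limma adjusted p = 0.0114), and the partner Arnt did not pass, at 0.19 (limma adjusted p = 0.464). Among the hydroxylases Egln1 rose by 1.02 on the log2 scale (limma adjusted p = 0.00167), whereas Egln3 had 0.43 (limma adjusted p = 0.183) and Egln2 −0.04 (limma adjusted p = 0.943).

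Among the members that rose, Vegfa, the vascular growth factor, had 33.5 and 30.3 RPM with T3, against 7.20 and 5.11 RPM without (log2 fold change 2.21 ± 0.20). Car9, a carbonic anhydrase of the cell surface, had 152 and 42.2 RPM with T3, against 52.3 and 6.46 RPM without (log2 fold change 2.03 ± 0.21). The T3 value of C17.2b lay below the untreated value of C17.2a for Car9, so that these groups overlapped although each line rose. Ero1l, now named Ero1a, is an oxidase that helps form disulfide bonds in the endoplasmic reticulum, and it had 173 and 132 RPM with T3, against 57.4 and 42.7 RPM without (log2 fold change 1.59 ± 0.12). Bnip3, a mitochondrial protein of mitophagy, had 559 and 684 RPM with T3, against 250 and 186 RPM without (log2 fold change 1.52 ± 0.16). Both T3 values stood above both untreated values for Vegfa, Ero1l and Bnip3. Members with smaller rises included Ddit4, an inhibitor of mTOR signalling (1.34), Plod2 (1.35) and P4ha2 (0.84), which hydroxylate collagen, and Kdm4b (0.95) and Kdm3a (0.60), which demethylate histones. Besides Arnt, Egln2 and Egln3, the members that did not pass were Ndrg1 (0.15), Vldlr (0.20) and Car12 (0.17).

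The promoter windows of 4 members are shown because the letters ACGTG, or CACGT for the other strand, can be read in them next to the genes' rise. Each runs from 250 bases before the start site to 50 after it in RefSeq on GRCm38.p6, which is not the build of the deposited table, and capitals mark each match on either strand, with CACGTG where matches on both strands overlap. The windows are Car9 at chr4:43506776-43507075 on the plus strand, Bnip3 at chr7:138909457-138909756 on the minus strand, Ero1a at chr14:45318523-45318822 on the minus strand, and Ldha at chr7:46845554-46845853 on the plus strand, 5′ to 3′ along the gene.
Car9: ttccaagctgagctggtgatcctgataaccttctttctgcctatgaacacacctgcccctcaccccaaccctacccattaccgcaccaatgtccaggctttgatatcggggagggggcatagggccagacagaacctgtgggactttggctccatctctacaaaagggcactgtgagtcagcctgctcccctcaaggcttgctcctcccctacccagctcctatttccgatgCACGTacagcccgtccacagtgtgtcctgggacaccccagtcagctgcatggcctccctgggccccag
Bnip3: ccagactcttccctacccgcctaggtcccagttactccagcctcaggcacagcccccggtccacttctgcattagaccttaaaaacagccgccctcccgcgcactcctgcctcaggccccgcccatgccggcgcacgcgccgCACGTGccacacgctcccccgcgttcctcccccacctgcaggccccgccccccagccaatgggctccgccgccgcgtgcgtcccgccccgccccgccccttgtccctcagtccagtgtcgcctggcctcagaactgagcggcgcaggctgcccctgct
Ero1a: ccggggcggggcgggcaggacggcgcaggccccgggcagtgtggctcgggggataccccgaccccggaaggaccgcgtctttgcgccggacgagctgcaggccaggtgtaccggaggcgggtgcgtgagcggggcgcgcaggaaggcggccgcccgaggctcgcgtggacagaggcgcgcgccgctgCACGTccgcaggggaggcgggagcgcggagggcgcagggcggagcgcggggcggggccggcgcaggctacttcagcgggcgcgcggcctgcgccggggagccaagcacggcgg
Ldha: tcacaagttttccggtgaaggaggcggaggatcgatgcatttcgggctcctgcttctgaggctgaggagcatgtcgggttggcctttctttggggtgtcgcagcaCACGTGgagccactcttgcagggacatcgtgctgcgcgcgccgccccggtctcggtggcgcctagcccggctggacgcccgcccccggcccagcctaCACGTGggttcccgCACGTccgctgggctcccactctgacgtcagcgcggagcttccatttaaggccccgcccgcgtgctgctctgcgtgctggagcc

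These windows hold 1 match in Car9, 2 in Bnip3, 1 in Ero1a and 5 in Ldha, counted over both strands. Ldha has a second window in RefSeq with no match, and the one with matches is shown. RefSeq windows were found for 19 of the 24 hypoxia genes that rose, 26 windows in all, and 17 of the 26 (65.4%) held ACGTG on either strand. The share was 25.7% among 10705 windows of tested genes and 19.6% among all 32851 windows. Over the genes that rose at 12 h it was 24.1%, and over those that fell 17.6%. The hypoxia list was made of genes of the hypoxia response, so its share describes the list, and a link to T3 was not tested. Windows of list members that did not rise were not counted. The letters AGGTCA, the core that thyroid hormone receptors bind, were found in 13.2% of the windows of genes that rose and 16.4% of those that fell, against 12.2% of windows of tested genes. The spaced repeat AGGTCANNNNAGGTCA was found in 0 windows of tested genes and in 5 of all windows. Matches describe letters in a window, CACGTG is also the core of other factors' sites, and no match says nothing on binding elsewhere.

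Of 21 tested genes of glycolysis and glucose uptake, 13 rose, 1 fell and 7 did not pass, where 4.47% of all tested genes rose and 2.07% fell. Their median log2 fold change was 0.67. The glycolysis and hypoxia lists share 5 genes (Slc2a1, Hk2, Ldha, Pdk1 and Pgk1), so the counts of the lists are not separate. Eno2, the neuronal enolase, had 16.1 and 23.7 RPM with T3, against 4.44 and 9.24 RPM without (log2 fold change 1.46 ± 0.18). Pfkfb4 and Pfkfb3, which make the fructose bisphosphate that activates phosphofructokinase, rose by 1.45 ± 0.21 and 1.34 ± 0.20 on the log2 scale. Slc2a1, the widespread glucose transporter, had 59.2 and 63.6 RPM with T3, against 33.5 and 29.2 RPM without (log2 fold change 0.95 ± 0.16). In all 4 genes the T3 libraries lay above both untreated ones. Ldhb, the lactate dehydrogenase subunit that favours lactate use, was the member that fell (−0.62; limma adjusted p = 0.0436).

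Several of these enzymes were among the most abundant transcripts of the libraries. Ldha, the subunit that makes lactate, had 3467 and 3774 RPM with T3, against 2539 and 2042 RPM without (log2 fold change 0.67 ± 0.14; limma adjusted p = 0.0173). Pgk1 had 1527 and 1572 RPM with T3, against 1100 and 834 RPM without (log2 fold change 0.69 ± 0.14). Tpi1 had 2160 and 2434 RPM with T3, against 1542 and 1366 RPM without (log2 fold change 0.66 ± 0.15). Both T3 values were above both untreated values in each, and the rise was larger in C17.2b, at 0.89, 0.91 and 0.83, than in C17.2a, at 0.45, 0.47 and 0.49. Gapdh (0.48; limma adjusted p = 0.0658) and Aldoa (0.62; limma adjusted p = 0.207) did not pass. The list depended on the C17.2b pair: without it 5 members rose and Ldha, Pgk1 and Tpi1 had limma adjusted p of 0.595, 0.463 and 0.472, and without the C17.2a 12 h pair 12 members rose. With all 12 libraries 0 members of the glycolysis list passed (limma; 12 had an unadjusted p under 0.05), and when the C17.2a 24 h pair alone was left out of that fit 14 passed.

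**Figure D3:**
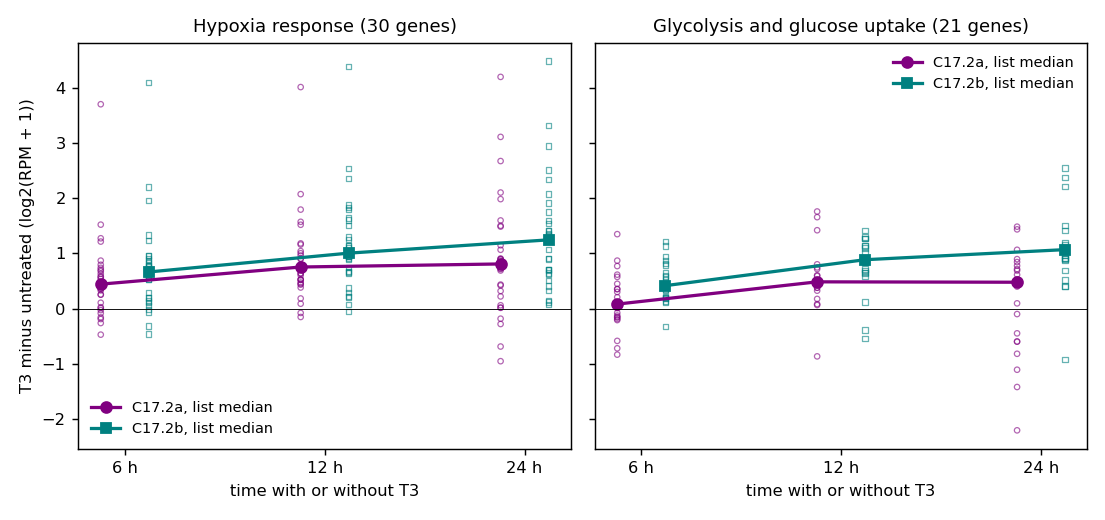
T3 minus untreated differences as log2(RPM + 1) for the 30 hypoxia genes (left) and the 21 glycolysis genes (right) at 6, 12 and 24 h, with 1 open symbol per gene, circles for C17.2a, squares for C17.2b, and lines through the list medians. The hypoxia medians of C17.2a are 0.44, 0.75 and 0.81, and those of C17.2b are 0.66, 1.0 and 1.25.

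Of 22 tested genes of fatty acid synthesis and lipids, 8 rose, 1 fell and 13 did not pass, where 4.47% of all tested genes rose and 2.07% fell. Their median log2 fold change was 0.44. Scd1, a fatty acid desaturase, had 357 and 336 RPM with T3, against 142 and 119 RPM without (log2 fold change 1.40 ± 0.15; limma adjusted p = 0.000197). Srebf1 had 511 and 531 RPM with T3, against 230 and 240 RPM without, and the difference was 1.15 in C17.2a and 1.14 in C17.2b. Dgat2, which completes triglyceride synthesis, had 115 and 480 RPM with T3, against 62.8 and 133 RPM without (log2 fold change 1.36 ± 0.24), so that the C17.2a T3 library lay below the C17.2b untreated one. Fasn, the fatty acid synthase, rose by 0.73 (limma adjusted p = 0.00735), and Acsl3, an acyl-CoA synthetase, fell by 0.60 on the log2 scale. Acaca (0.58) and Acly (−0.16) did not pass. Of the members that passed, Me1 and Scd1 kept their calls with all 12 libraries (limma adjusted p = 0.0279 and 0.0362), and without the C17.2b 12 h pair 5 members rose and 0 fell.

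Of 18 tested genes of fatty acid oxidation 3 rose, 0 fell and 15 did not pass (limma): Ppard, a nuclear receptor for fatty acids (0.88), Cpt1a (0.78) and Cpt2 (0.66), which carry fatty acids into mitochondria. Each of the 3 lost its call without 1 of the 12 h pairs: Ppard and Cpt2 without the C17.2a pair (limma adjusted p = 0.0871 and 0.652), and Ppard and Cpt1a without the C17.2b pair (0.0954 and 0.292). Of 28 tested genes of oxidative phosphorylation, Atp5c1, an ATP synthase subunit, was the 1 that rose (0.52; limma adjusted p = 0.0346, and 0.752 without the C17.2b 12 h pair). That share is near the 4.47% of all tested genes that rose, and is not a result about these genes. Their median was 0.15, and 22 of the 28 were higher with T3 in both lines, as were 39.7% of all tested genes. Of 20 tested genes of cholesterol synthesis and uptake 0 passed with limma or with voom (4 had an unadjusted p under 0.05), and their median was −0.08.

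**Figure D4:**
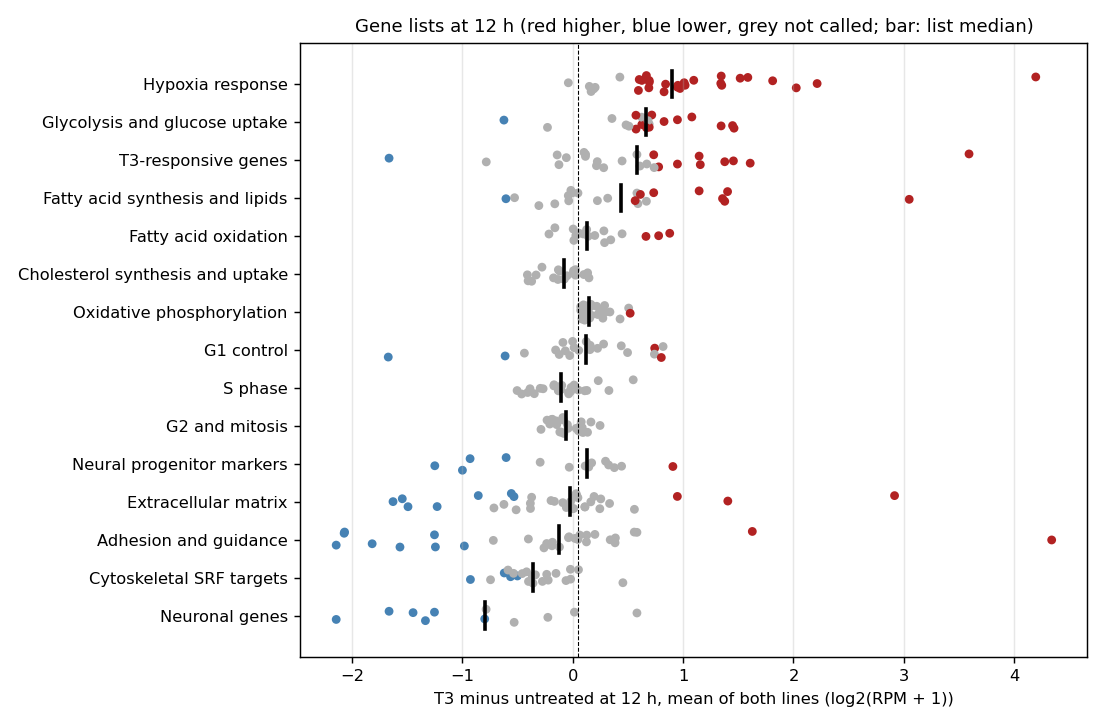
T3 minus untreated differences at 12 h (mean of both lines, log2(RPM + 1)) for the tested members of 15 gene lists, with red points for members that rose, blue for those that fell, grey for the rest, black bars for list medians and a dashed line for the median of all tested genes. The hypoxia median is 0.90, the neuronal median −0.80 and that of all genes 0.05.

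Of 11 tested neuronal genes 6 fell, 0 rose and 5 did not pass (limma), with a median log2 fold change of −0.80, where 2.07% of all tested genes fell. Chl1, an adhesion molecule of growing axons, had 0.57 and 0.80 RPM with T3, against 3.91 and 10.2 RPM without (log2 fold change −2.14 ± 0.26). Nefm had 0.28 and 0.80 RPM with T3, against 3.29 and 4.39 RPM without (log2 fold change −1.66 ± 0.22). L1cam, a relative of Chl1, had 16.4 and 30.8 RPM with T3, against 42.1 and 71.7 RPM without (log2 fold change −1.25 ± 0.14). The T3 libraries lay below both untreated ones for all 3. Syt4, a synaptotagmin of vesicle release, fell by 1.45 on the log2 scale, Lrrtm2, a synaptic adhesion protein, fell by 1.33, and Mtap2, the dendritic microtubule protein, fell by 0.80. Tubb3, a tubulin of young neurons, did not pass at −0.53 (limma adjusted p = 0.0558). The 13 neuronal genes with a value summed to 122 and 193 RPM with T3, against 209 and 312 RPM without. In such bulk libraries fewer cells of a type and less RNA per cell cannot be told apart. With all 12 libraries Chl1 and Nefm kept their calls (limma adjusted p = 0.043 and 0.0476).

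Of 14 tested neural progenitor markers 4 fell, 1 rose and 9 did not pass, where 2.07% of all tested genes fell and 4.47% rose. Their median log2 fold change was 0.13. In both lines 7 members were higher and 5 lower, as were 39.7% and 25.6% of all tested genes. Vim, the intermediate filament vimentin, had 1112 and 1126 RPM with T3, against 1928 and 2597 RPM without (log2 fold change −1.0 ± 0.13). Sox2, a transcription factor of neural stem cells, had 86.1 and 108 RPM with T3, against 188 and 282 RPM without (log2 fold change −1.25 ± 0.17). The T3 libraries were the lower ones for both genes. Notch1, the receptor, fell by 0.93 and Nes, the filament protein nestin, fell by 0.60 on the log2 scale, whereas Gli3, a transcription factor of hedgehog signalling, rose by 0.91. The 17 progenitor genes with a value summed to 1859 and 1852 RPM with T3, against 2815 and 3535 RPM without, and Vim made up most of each sum. Nes and Vim lost their calls without the C17.2b 12 h pair (limma adjusted p = 0.523 and 0.0545), Notch1 and Gli3 without the C17.2a 12 h pair (0.0564 and 0.122), and none of the 5 kept its call with all 12 libraries.

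Of 9 tested astroglial genes 3 rose: Aqp1, Slc1a2 and Gja1, the gap junction protein connexin (0.56; limma adjusted p = 0.0193, and 0.5 without the C17.2a 12 h pair). Gfap, the defining astrocyte filament, had 2.12 and 2.21 RPM with T3, against 1.07 and 1.52 RPM without, and did not pass (limma adjusted p = 0.281). Glul, glutamine synthetase, did not pass at 0.31, and S100b had −0.15. Of the 15 listed astroglial genes, the astrocyte markers Aqp4, Aldh1l1 and Gjb6 had no value. The 12 with a value summed to 474 and 559 RPM with T3, against 314 and 304 RPM without. Aqp1 and Gja1 made up most of this rise. Aqp1 had 75.1 and 195 RPM with T3, against 4.80 and 6.10 RPM without. Gja1 had 211 and 221 RPM with T3, against 127 and 167 RPM without. Of 9 tested oligodendrocyte lineage genes 1 rose, and Pmp2, a lipid-binding myelin protein, fell by 1.48 on the log2 scale. For all lists here, the shares over all tested genes were 4.47% higher and 2.07% lower. Pmp2 lost its call without the C17.2a 12 h pair (limma adjusted p = 0.0818). Fibroblast markers summed to 5609 and 2849 RPM with T3, against 5399 and 2752 RPM without, and of 5 tested Dcn, a small proteoglycan, was the 1 that passed (1.22; limma adjusted p = 0.0167, and 0.158 without the C17.2a 12 h pair). The 3 muscle markers with a value summed to 0.28 and 0.18 RPM with T3, against 0.09 and 0.18 RPM without. Their part in the response was not tested.

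Of 31 tested genes of adhesion and axon guidance, 8 fell, 2 rose and 21 did not pass, where 2.07% of all tested genes fell and 4.47% rose. Their median log2 fold change was −0.12. Mcam, a cell adhesion molecule of the immunoglobulin family, had 10.5 and 15.8 RPM with T3, against 39.4 and 58.1 RPM without (log2 fold change −1.82 ± 0.14; limma adjusted p = 3.68e-05). Epb4.1l4b, a membrane-cytoskeleton linker, had 2.34 and 3.54 RPM with T3, against 13.1 and 18.0 RPM without (log2 fold change −2.07 ± 0.18). Cdsn, a desmosomal adhesion protein of skin, had 1.98 and 1.95 RPM with T3, against 10.9 and 11.9 RPM without (log2 fold change −2.07 ± 0.19). All 3 fell by about the same amount in each line. Epb4.1l3, a further linker of that family, had 6.23 and 5.49 RPM with T3, against 18.4 and 20.2 RPM without. Nrp1, a receptor of semaphorins and of Vegfa, went the other way, with 124 and 280 RPM with T3, against 49.0 and 72.8 RPM without (log2 fold change 1.63 ± 0.15). Of these, Mcam, Epb4.1l4b, Cdsn and Nrp1 kept their calls with all 12 libraries (limma adjusted p = 0.0279 for each).

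Of 35 tested genes of the extracellular matrix, 7 fell, 3 rose and 25 did not pass, where 2.07% of all tested genes fell and 4.47% rose. Their median log2 fold change was −0.02. Tnc, the matrix glycoprotein tenascin, had 16.8 and 34.8 RPM with T3, against 47.2 and 104 RPM without (log2 fold change −1.49 ± 0.14). Postn, periostin, had 266 and 402 RPM with T3, against 659 and 894 RPM without (log2 fold change −1.23 ± 0.12). Both lay below both untreated libraries. Adam12, a membrane-bound metalloprotease, had 1.49 and 0.80 RPM with T3, against 5.33 and 5.02 RPM without. Nid2, a nidogen of basement membranes, rose by 1.41 and Col4a2, a basement membrane collagen, rose by 0.95 on the log2 scale, with Npnt as the third. The fibrillar collagens Col1a1 (0.16; limma adjusted p = 0.581) and Col3a1 (−0.20; limma adjusted p = 0.404) did not pass. With all 12 libraries Npnt was the 1 matrix gene called (limma adjusted p = 0.0315).

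Cytoskeletal targets of serum response factor had a median of −0.36, with 17 of 22 tested members lower in both lines, as were 25.6% of all tested genes, and 4 fell, where 2.07% of all tested genes fell. These were Tpm1, a tropomyosin (−0.93), Flna, an actin crosslinker (−0.62), Actg1, a cytoplasmic actin (−0.56), and Vcl, vinculin of focal adhesions (−0.50). Each lost its call without the C17.2b 12 h pair (limma adjusted p = 0.229, 0.102, 0.533 and 0.393). Of 18 tested early response genes 2 rose (Fos and Fosl1), 2 fell (Jun and Atf3) and 14 did not pass, where 4.47% of all tested genes rose and 2.07% fell. Fosl1 lost its call without the C17.2a 12 h pair (limma adjusted p = 0.231) and Atf3 without the C17.2b 12 h pair (0.199). Jun, a subunit of the AP-1 factor, had 68.3 and 131 RPM with T3, against 175 and 365 RPM without (log2 fold change −1.41 ± 0.12; limma adjusted p = 5.43e-05). Fos, its partner, had 124 and 136 RPM with T3, against 43.9 and 81.7 RPM without (log2 fold change 1.10 ± 0.21; limma adjusted p = 0.00792). Jun and Fos thus moved in opposite directions in both lines.

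Of 25 tested S phase genes and 26 tested genes of G2 and mitosis 0 passed with limma or with voom, with medians of −0.11 and −0.06, and 3 and 1 of them had an unadjusted p under 0.05. Cdk1, the mitotic kinase, had 490 and 452 RPM with T3, against 568 and 504 RPM without (log2 fold change −0.18; limma adjusted p = 0.606). Of 23 tested genes of G1 control 2 fell, Ccnd1 and Btg1 (−0.61), and 2 rose, Cdkn1a, a cyclin-dependent kinase inhibitor (0.74), and Gadd45a (0.80). Of all tested genes 2.07% fell and 4.47% rose. Btg1 lost its call without either 12 h pair (limma adjusted p = 0.059 without C17.2a and 0.231 without C17.2b), Cdkn1a without the C17.2b pair (0.328) and Gadd45a without the C17.2a pair (0.195). Of 50 tested cytosolic ribosomal protein genes and 12 tested interferon and MHC genes 0 passed with limma or with voom, and 4 and 0 of them had an unadjusted p under 0.05.

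Other lists had a few members that changed, where 4.47% of all tested genes rose and 2.07% fell. Of 14 tested clock genes, Bhlhe40, a repressor in the clock loop and a hypoxia target, rose with 19.7 and 19.1 RPM with T3, against 4.97 and 4.66 RPM without (log2 fold change 1.81 ± 0.20), Hlf also rose, and Nfil3 fell by 1.27 on the log2 scale. Hlf had 0.92 and 3.19 RPM with T3, against 0.18 and 0 RPM, below the 3-tag floor, without. Of 16 tested ion channel genes, Kcna1 and Clcn3 rose and Kctd12 and Kcnmb4 fell. Kcnmb4, an accessory subunit of calcium-activated potassium channels, had 1.13 and 3.37 RPM with T3, against 3.46 and 12.1 RPM without, with the T3 value of C17.2b just under the untreated value of C17.2a. Of 10 tested chemokine and receptor genes Cxcr7 rose, and Ccl2, which attracts monocytes, and Cxcl14 fell. Ccl2 had 120 and 43.3 RPM with T3, against 177 and 116 RPM without, and the T3 value of C17.2a was above the untreated value of C17.2b. Without the C17.2b 12 h pair Hlf, Nfil3, Clcn3, Kcnmb4, Ccl2 and Cxcl14 lost their calls (limma adjusted p = 0.405, 0.0621, 0.596, 0.0547, 0.224 and 0.308), and Clcn3 also without the C17.2a 12 h pair (0.0656).

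The genes called at 12 h were also set beside their values at 6 h. In the same fit 681 genes (6.58%) passed at 6 h, 391 (3.78%) higher and 290 (2.8%) lower. The genes that rose at both times numbered 281, which is 60.7% of those at 12 h and 71.9% of those at 6 h. The genes that fell at both times numbered 130, 60.7% of those at 12 h and 44.8% of those at 6 h, and 0 genes passed in opposite directions. The 6 h and 12 h pairs share no library. The spread behind the 12 h calls came from both times, so the 6 h values are no separate check. Of the 463 genes that rose at 12 h, 94.2% were higher with T3 in the C17.2a pair at 6 h and 96.3% in the C17.2b pair. Of the 214 that fell, 98.6% and 98.1% were lower in those pairs. At 24 h the shares for the genes that rose were 74.7% in C17.2a and 99.1% in C17.2b, and for those that fell 82.2% and 93.9%. Such shares over all tested genes were not counted, so these are a description only.

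**Figure D5:**
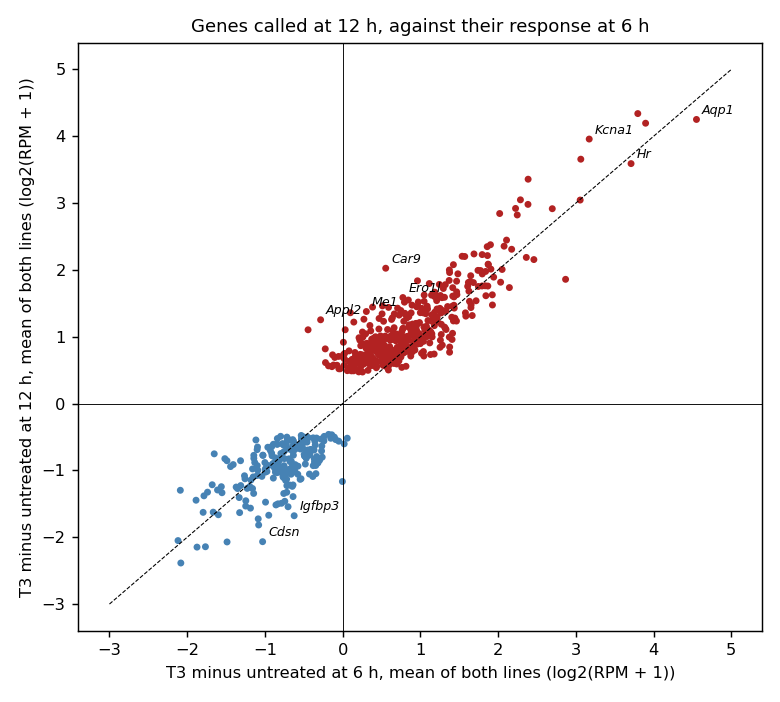
Each point is 1 of the 677 genes called at 12 h, with its mean T3 minus untreated difference at 6 h on the x axis and at 12 h on the y axis, both as log2(RPM + 1), red for genes that rose and blue for genes that fell, and a dashed line where both are equal. Appl2, at −0.28 and 1.25, lies farthest from that line among the labelled genes.

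In the test of the difference itself 1 gene passed (0.00966% of those tested), and 519 had an unadjusted p under 0.05. Appl2, an adaptor protein of endosomes and insulin signalling, had 134 and 204 RPM with T3 at 12 h, against 56.8 and 83.1 RPM without. At 6 h it had 67.2 and 81.4 RPM with T3, against 80.6 and 101 RPM without. Its T3 libraries were thus the higher ones at 12 h and the lower ones at 6 h, in each line, and its difference at 12 h exceeded that at 6 h by 1.54 ± 0.17 on the log2 scale (limma adjusted p = 0.0203). The call was lost without the C17.2a 6 h pair (limma adjusted p = 0.246) and without the C17.2b 6 h pair (0.117), and with all 12 libraries (1).

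The next smallest p-values for larger responses at 12 h belonged to Clvs1 (1.58), Me1 (1.07), Gng11 (1.55), Itfg3 (1.06) and Car9 (1.47), and none of these passed (limma adjusted p = 0.249 to 0.58). Car9 had 73.0 and 11.2 RPM with T3 at 6 h, against 48.8 and 7.39 RPM without, a log2 fold change of 0.55, and 2.03 at 12 h. For smaller or opposite responses at 12 h they belonged to Tubb3 (−1.22), Eif4g1 (−0.95), l7Rn6 (−1.37), Ly6e (−1.45), Rps16 (−0.69) and Snrpc (−0.78), with limma adjusted p of 0.249 to 0.815. Of the 30 hypoxia genes 28 and of the 21 glycolysis genes 19 had a larger difference at 12 h than at 6 h. Their medians at 6 h were 0.57 and 0.30. The count was 22 of 28 for oxidative phosphorylation, 16 of 20 for STAT5 and SOCS signalling and 3 of 14 for amino acid transporters. The share over all tested genes was not counted, so these counts describe the lists and do not set them apart from other genes. At 6 h 13 hypoxia genes and 4 glycolysis genes rose, and in the test of the difference 0 members of either list passed with limma (smallest adjusted p = 0.58 and 0.824), while 9 and 5 had an unadjusted p under 0.05. Ldha, with 2406 and 1960 RPM with T3 at 6 h, against 2684 and 1702 RPM without, had a log2 fold change of 0.02 there.

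Against 24 h, 0 of 10774 genes passed with limma (0.0%) or with voom, and 392 had an unadjusted p under 0.05. This test takes its spread in part from the C17.2a 24 h pair. The count changed when either 24 h pair was left out. Such a fit leaves 1 T3 and 1 untreated library for 24 h, so its counts are not given. Clic1, a chloride intracellular channel protein, had 52.3 and 39.5 RPM with T3 at 12 h, against 46.9 and 23.5 RPM without. At 24 h it had 8.59 and 13.5 RPM with T3, against 109 and 78.8 RPM without. Its T3 libraries were thus far lower at 24 h in both lines and not at 12 h. The Clic1 difference was 3.43 ± 0.41 (limma adjusted p = 0.763), and 2.90 without the C17.2a 24 h pair. Nol6, a nucleolar protein of ribosome assembly, had 31.9 and 24.6 RPM with T3 at 12 h, against 26.4 and 25.5 RPM without. At 24 h Nol6 had 95.8 and 80.7 RPM with T3, against 19.3 and 15.7 RPM without. Its difference was −2.16 ± 0.29 (limma adjusted p = 0.797), and −2.18 without the C17.2a 24 h pair. Igfbp3, which fell at 12 h, had 103 and 31.5 RPM with T3 at 24 h, against 49.3 and 23.9 RPM without. Its difference was −2.40 (limma adjusted p = 0.797), and −2.07 without the C17.2a 24 h pair.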

How the data were processed

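The authors deposited 1 table of 12774 gene symbols with 12 columns of RPM, tag numbers scaled so that every library has the same sum; the unit was inferred because all column sums were equal within rounding. The genome build is mm9 per the submitters' processing notes, while the aligner and the rule from tags to genes are not given in the sources used here. N/A was read as 0. Low values lay on steps of 1 tag for 93.2% to 93.7% of symbols at 12 h (tolerance 0.0055 RPM), and because the rest lay off the steps the values were not turned back into counts. limma 3.58.1 in R 4.3.3 (lmFit, eBayes with a trend) was run on log2(RPM + 1) for genes that reached 1 RPM in 2 or more of the 8 libraries of 6 h and 12 h, with each pair as a block, which left 2 residual degrees of freedom. eBayes added 8.95 prior degrees of freedom drawn from all tested genes, so these weigh more in each SE than the gene's own spread. The log2(RPM + 1) scale understates changes of low genes. The 24 h comparison used all 12 libraries. T3 and untreated libraries were paired by line and time, which the labels give.

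Genes were named by rule: Thra, Thrb, Klf9 and Hr, the 15 highest and 15 lowest log2 fold changes among genes past the threshold with 1 sign in both pairs and 20 or more implied tags on average, up to 5 members of each list with the smallest p, and the 6 smallest p in each direction for the differences between times. Ldha, Pgk1 and Tpi1 were added as abundant genes, and other list members by name, after their values were seen. The members, lists, tests and the choice of the 8 libraries were made with earlier results of these data known. Of the symbols 836 matched a current one through a synonym and 101 matched none. Values equal to another symbol's at 1 decimal were found for 74 tested genes, 7 of them called and none named. Promoter windows are from RefSeq on GRCm38.p6. The script was tested on simulated data. Some genes that the rule names are not reported here.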

Additional observations from a re-analysis of the deposited data

Results flagged for a closer look

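The response of Appl2 differed between the times: the T3 minus untreated difference at 12 h exceeded that at 6 h by 1.54 on the log2 scale, by a test of the difference itself. Its T3 libraries were higher in both lines at 12 h and lower in both lines at 6 h. Among 10350 genes it was the 1 that passed, and at 24 h its differences were 2.08 in C17.2a and 2.06 in C17.2b. Its limma adjusted p ranged between 0.000103 and 1 over the alternatives.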

How the results depend on the processing

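The count of 677 genes at 12 h became 52 with all 12 libraries, 358 without a filter, and between 379 and 736 when a pair was left out, the lowest without the C17.2b 12 h pair. With a pair left out at 12 h, the lone pair is assumed to vary like those of 6 h. Median-ratio scaling gave 577 (346 higher, 231 lower), fitting without the replicate block 587, the 4 libraries of 12 h alone 744, and all libraries but the C17.2a 24 h pair, an alternative chosen after seeing the data, 705. Of 114 named genes called at 12 h, 30 kept the call with all 12 libraries, 78 without a filter, 87 without the C17.2a 12 h pair and 78 without the C17.2b 12 h pair, and none changed sign in the alternatives run. The difference from 6 h had 0 genes in place of 1 with all 12 libraries, with no replicate block, with median-ratio scaling and without a filter, and ranged from 0 to 33 when a pair was left out. The difference from 24 h ranged from 0 to 3194 when a pair was left out. The 180 genes past 2-fold in both lines became 558 at 1.5-fold, 72 at 3-fold and 110 with at least 200 implied tags. The causes were not tested. Depth limits the genes near the 3-tag floor, such as Npnt and Slc1a2, whose fitted changes depend on the pseudocount.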

Other observations

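Genes just past the 15 highest, chosen after their values were seen, included the following. Hcn2, a channel of the pacemaker current, had 8.42 and 16.4 RPM with T3, against 2.58 and 1.08 RPM without (log2 fold change 2.23; limma adjusted p = 0.0025). Gpd1, which links glycolysis to glycerolipid synthesis, had 22.4 and 29.7 RPM with T3, against 5.51 and 4.57 RPM without (2.16). Slc27a1, a fatty acid transport protein, had 8.99 and 8.68 RPM with T3, against 2.13 and 0.90 RPM without (2.01). C1qtnf1, a secreted relative of complement C1q, had 98.3 and 84.9 RPM with T3, against 28.8 and 12.6 RPM without (2.20). F3, tissue factor of blood clotting, had 35.4 and 26.0 RPM with T3, against 7.91 and 6.46 RPM without (1.94).

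Genes just past the 15 lowest, chosen in the same way, included Gas7, an actin-binding protein of outgrowing neurites, with 160 and 469 RPM with T3, against 509 and 1246 RPM without (−1.53). Moxd1, a monooxygenase-like protein, had 132 and 216 RPM with T3, against 333 and 694 RPM without (−1.50). Mest, an imprinted gene, had 59.2 and 36.7 RPM with T3, against 124 and 108 RPM without (−1.29). For all 3 each line fell, and the untreated Gas7 level of C17.2b was above that of C17.2a.

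Hspa1b was the 1 of 22 tested heat shock and chaperone genes that passed, with 22.4 and 35.9 RPM with T3, against 8.97 and 4.48 RPM without (log2 fold change 1.99; limma adjusted p = 0.00705). That share is near the 4.47% of all tested genes that rose, and is not a result about the list. Hspa1b shares nearly all its sequence with Hspa1a, and how tags were split between them is not given in the sources used here.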
